A study of Homo sapiens with 9 samples.

Results

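This account follows 10 genes of the transforming growth factor beta (TGF-beta) and bone morphogenetic protein (BMP) pathways in PANC-1 cells treated with TVB-3166: the ligands TGFB1 and TGFB2, the receptors TGFBR1 and TGFBR2, the signal transducer SMAD3, the inhibitory SMADs SMAD6 and SMAD7, and the inhibitors of DNA binding ID1, ID2 and ID3. Every probe set (a group of short probes read as 1 value on the array) annotated to exactly 1 gene was taken where that gene was one of the 10. This gave 25 of the 54675 probe sets on the array, from 1 each for SMAD7, ID1 and ID3 to 5 for TGFB2. All 10 genes had at least 1 probe set bright enough to be tested, and 23 of the 25 probe sets passed the filter on dim values, a mean signal above 38.95.

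PANC-1 is an established human pancreatic adenocarcinoma line. Cells in medium with 1% charcoal-filtered serum received DMSO, 0.1 µM TVB-3166 or 1.0 µM TVB-3166 for 72 hours, with 3 arrays in each of the 3 groups. The series title names TVB-3166 as an inhibitor of fatty acid synthase, the enzyme that builds palmitate, and the design compares each dose with the vehicle. The study therefore rests on 1 cell line in culture, and the labels do not say whether the 3 arrays of a group came from separate cultures, so p-values may reflect technical spread only. The labels disagree on some doses, and groups were taken from the sample titles.

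As background, TGF-beta ligands bind a type II receptor, which recruits and phosphorylates a type I receptor, and this in turn phosphorylates SMAD2 and SMAD3 so that they enter the nucleus with SMAD4. BMP ligands use related receptors and SMAD1, SMAD5 and SMAD9, and the ID genes and SMAD6 are classic targets of that branch. SMAD6 and SMAD7 act back on the receptors and limit the signal, while ID proteins bind basic helix-loop-helix (bHLH) factors and keep them off DNA. In pancreatic tumours the pathway is known for frequent loss of SMAD4 and for both growth-restraining and invasion-promoting roles.

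Each array had a 2% trimmed mean of 500.1, which follows from scaling to 1 target and says nothing of quality. Within a group the arrays correlated across genes (which are no replicates of each other) at 0.981 to 0.9899. Arrays of different groups correlated at 0.962 to 0.987, a range that overlaps the first. Probe sets at the 3′ and 5′ ends of GAPDH differed by −0.22 to −0.10 on the log2 scale over the 9 arrays, and those of ACTB by 0.10 to 0.24. In the signal of hybridisation spikes 4 arrays stood above the other 5, namely replicate 2 of DMSO, replicates 1 and 3 of 0.1 µM and replicate 2 of 1.0 µM. Values within each of these sets are given with the results, and what the split stands for is not known. All 6 epithelial and ductal markers (KRT7, KRT8, KRT18, KRT19, EPCAM and CDH1) were measured well above the filter, with no array under a signal of 289.8. Of 15 markers of blood, endothelial, fibroblast, acinar and endocrine cells, 12 had a probe set and 3 passed the filter, none of which was called at either dose.

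The regions just upstream of the start sites are shown for the 4 genes whose fall at both doses against DMSO passed the test, as reference for the transcripts that the arrays read. Each is the 250 bases before the start of the gene's RefSeq transcript on GRCh38.p14, written 5′ to 3′ on the gene's own strand. TGFB2 lies at chr1:218345086-218345335 on the plus strand, SMAD6 at chr15:66701986-66702235 on the plus strand, ID1 at chr20:31605039-31605288 on the plus strand and ID3 at chr1:23559502-23559751 on the minus strand. Capitals mark matches to the motifs described after the sequences.
TGFB2: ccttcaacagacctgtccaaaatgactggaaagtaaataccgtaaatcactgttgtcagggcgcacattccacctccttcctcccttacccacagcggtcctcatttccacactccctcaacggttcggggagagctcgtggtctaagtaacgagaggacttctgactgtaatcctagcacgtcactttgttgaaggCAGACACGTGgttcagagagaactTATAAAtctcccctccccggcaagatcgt
SMAD6: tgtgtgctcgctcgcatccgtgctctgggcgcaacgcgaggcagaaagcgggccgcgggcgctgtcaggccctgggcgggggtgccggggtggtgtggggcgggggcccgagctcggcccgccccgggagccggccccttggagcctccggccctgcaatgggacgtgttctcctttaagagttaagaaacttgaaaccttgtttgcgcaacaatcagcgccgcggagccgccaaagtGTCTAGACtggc
ID1: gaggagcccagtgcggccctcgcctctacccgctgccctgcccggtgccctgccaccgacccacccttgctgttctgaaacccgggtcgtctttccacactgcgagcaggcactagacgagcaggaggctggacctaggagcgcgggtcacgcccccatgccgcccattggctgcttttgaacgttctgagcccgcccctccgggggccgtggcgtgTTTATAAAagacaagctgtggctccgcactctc
ID3: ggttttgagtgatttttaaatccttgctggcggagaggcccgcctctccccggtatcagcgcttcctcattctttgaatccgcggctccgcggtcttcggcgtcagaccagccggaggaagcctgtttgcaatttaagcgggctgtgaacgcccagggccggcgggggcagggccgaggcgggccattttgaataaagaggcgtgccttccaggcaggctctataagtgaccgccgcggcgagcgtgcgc

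Both strands were searched for GGCGCC (the core of GC-rich elements bound by BMP-activated SMADs), CAGACA (a SMAD3 and SMAD4 element) and the E-boxes CAGCTG and CACGTG, sites of the kind bHLH factors bind. TATAAA (the TATA box) and GTCTAGAC (a palindromic SMAD box) were added after the sequences had been read. The TGFB2 window holds CAGACA, starting 53 bases before the start site, and CACGTG at 49, with 2 letters shared between them, and TATAAA at 29. The ID1 window holds TATAAA on both strands in 1 overlapping run, at 33 and 31 bases before the start. In the SMAD6 window the only match is GTCTAGAC, which is its own reverse complement, 12 bases before the start, and the ID3 window has no match to any of the 6. The 10 genes have 24 windows in the table, since a gene can have several starts. Of these 24 windows 4 held CAGACA, 3 TATAAA, 2 GGCGCC, 2 the E-box CAGCTG, 2 the E-box CACGTG and 1 GTCTAGAC. Among 35116 windows of the same length in the RefSeq table, the shares with a match were 16.4% for GGCGCC, 13.6% for CAGACA, 14.0% for CAGCTG, 6.34% for CACGTG, 10.7% for TATAAA and 0.182% for GTCTAGAC. A match describes the letters only.

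At 1.0 µM, 6 of the 10 genes fell against DMSO and none rose. ID3 fell the most, followed by TGFB2, SMAD6, ID1, SMAD7 and TGFBR2. By role, the fall took in 1 of the 2 ligands, 1 of the 2 receptors, both inhibitory SMADs and 2 of the 3 ID genes, while SMAD3, TGFB1, TGFBR1 and ID2 did not pass the test. Across all 13948 genes tested, 23.2% were called in that comparison, 12.3% higher and 11.0% lower (limma, Benjamini-Hochberg adjusted p under 0.05). The median log2 change over the 10 genes was −0.46, beside 0.01 over all genes. These are signals of bulk RNA, in which fewer cells of a kind and less RNA per cell cannot be told apart.

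At 0.1 µM, 4 of the 10 genes fell against DMSO (TGFB2, ID3, ID1 and SMAD6) and none rose, where 12.0% of all genes were called, 6.89% higher and 5.11% lower. The median over the 10 was −0.27, beside −0.01 over all genes. Between the doses only ID3 of the 10 was called, lower at 1.0 µM, where 0.817% of all genes were called, 0.387% higher and 0.430% lower. For 8 of the 10 genes the mean signal of the brightest probe set stepped down from DMSO to 0.1 µM to 1.0 µM. TGFB1 and TGFBR1 were the exceptions, and 3617 of the 13948 genes (25.9%) had that order of mean log2 level. Some other tested probe sets of TGFB2, SMAD3, SMAD6 and ID2 did not keep that order. A further SMAD3 set, for example, had means of 2580, 2871 and 3004. SMAD3 and ID2 are counted among the 8 although neither was called. The comparisons with DMSO share the same 3 DMSO arrays, so they are not independent of each other.

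**Figure D1:**
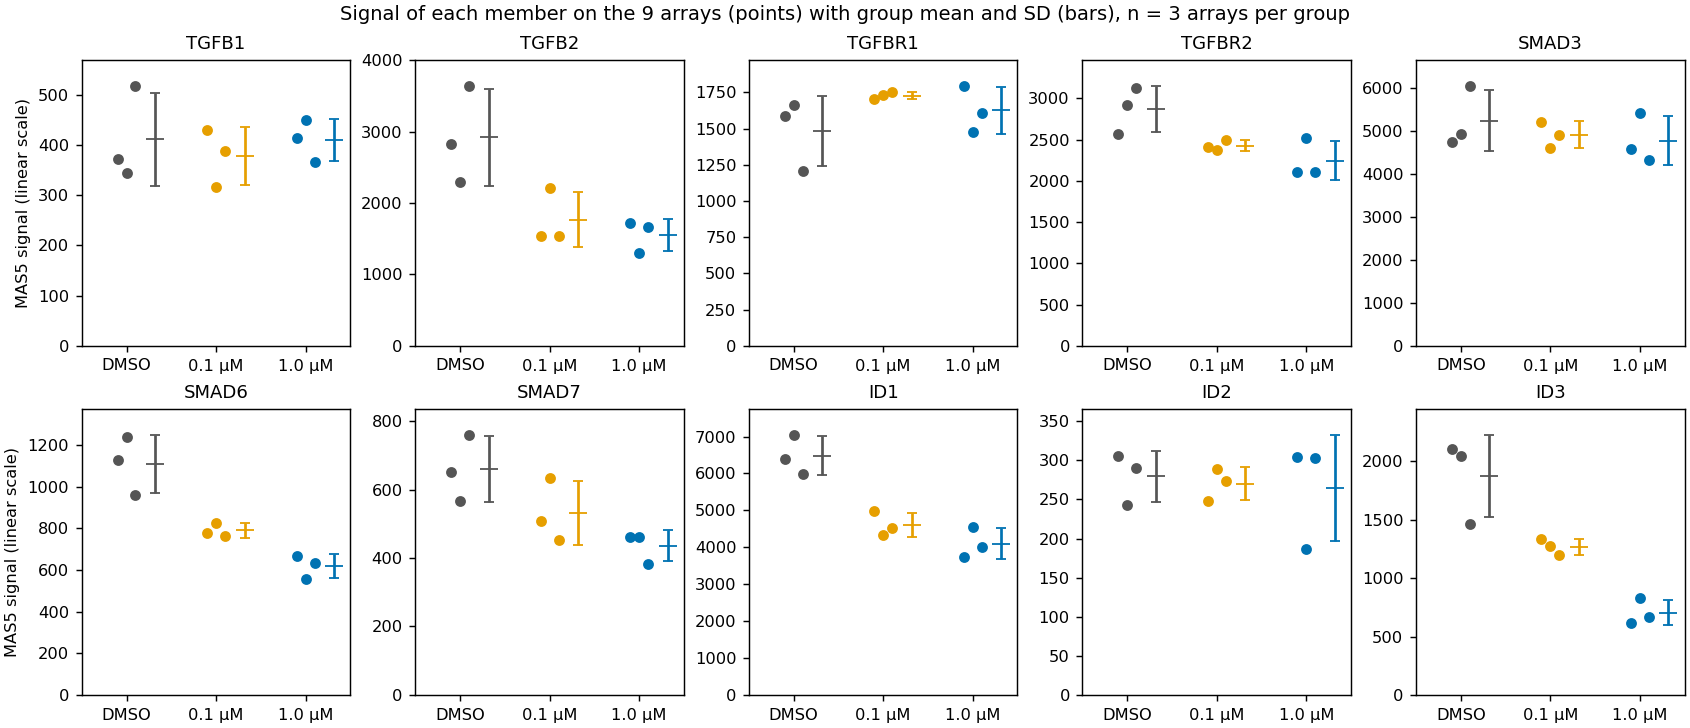
Signal of the 10 genes on each of the 9 arrays (linear MAS5 signal on the vertical axis, treatment on the horizontal axis), with 1 panel per gene for its brightest probe set, points for arrays and bars for the mean and SD of 3 arrays. In ID3 and SMAD6 the 3 groups do not overlap, with means of 1872, 1268 and 705 for ID3, whereas the 3 groups of TGFB1, SMAD3 and ID2 lie over each other.

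TGFB1, the ligand that gives the pathway its name (Entrez gene 7040, chromosome 19, 41330323 to 41353922 on GRCh38.p14), was not called at either dose. Its brighter probe set averaged 412 ± 92.5 in DMSO, 378 ± 58.0 at 0.1 µM and 410 ± 41.9 at 1.0 µM (signal, mean ± SD, n = 3 as in all means here). The arrays of the 3 groups overlapped. On the log2 scale the change was 0.01 ± 0.17 at 1.0 µM (limma SE, adjusted p = 0.980, 95% interval −0.36 to 0.38), and the second probe set lay below the filter with a mean of 28.4 in DMSO.

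TGFB2, a second TGF-beta ligand (Entrez gene 7042, chromosome 1, 218345336 to 218444619), fell at both doses. Its brightest probe set read 2830, 2296 and 3640 on the 3 DMSO arrays. It read 1541, 2214 and 1544 at 0.1 µM and 1715, 1300 and 1661 at 1.0 µM. Every treated array lay below every DMSO array, with 0.1 µM replicate 2 just under DMSO replicate 2, and the doses overlapped each other. Its log2 change was −0.88 ± 0.18 at 1.0 µM (adjusted p = 0.00402, 1.85-fold lower on the log2(signal + 16) scale) and −0.72 ± 0.18 at 0.1 µM (adjusted p = 0.0236). The 1.0 µM fall kept its call without each array in turn. The 0.1 µM call was lost without DMSO replicate 1 or 3 or 0.1 µM replicate 1 or 3 (adjusted p = 0.0617, 0.0883, 0.0929 and 0.112).

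Of the 4 other TGFB2 probe sets, 3 moved the same way. They read 675 to 715, 561 to 718 and 193 to 306 in DMSO, and 279 to 344, 320 to 327 and 95.6 to 102 at 1.0 µM. None of the 3 overlapped between DMSO and 1.0 µM, and their log2 changes of −1.08, −0.99 and −1.14 were each called in the fit of all 32768 probe sets, in which 17.6% were called, 8.94% higher and 8.68% lower. The last set was dim, with means of 39.3 in DMSO and 63.2 at 1.0 µM, and its change of 0.71 was not called (adjusted p = 0.26). One of the 3 also fell from 0.1 to 1.0 µM, by 0.66 on the log2 scale (adjusted p = 0.0476), while the brightest set differed by −0.17 between doses (adjusted p = 0.784).

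**Figure D2:**
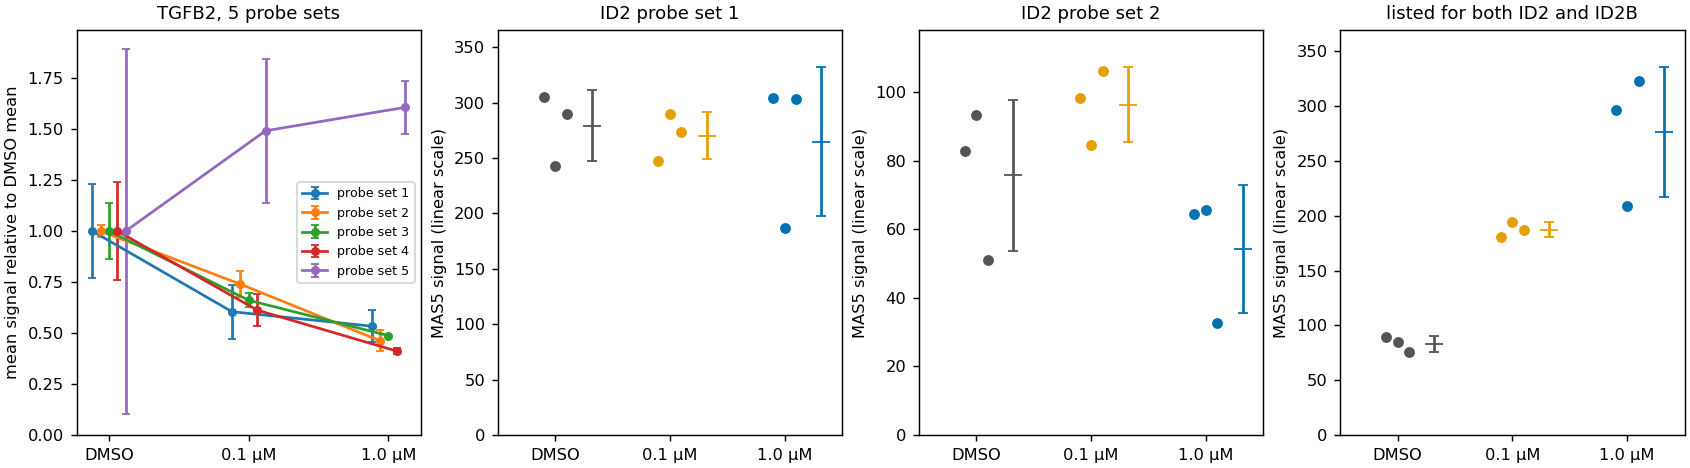
Probe sets that differ within a gene, against treatment on the horizontal axis. The first panel gives the mean signal of the 5 TGFB2 probe sets relative to DMSO with SD bars (n = 3), in which 4 sets step down and the dimmest does not; the others give the MAS5 signal of each array with mean and SD for both ID2 sets and for a set listed for ID2 and ID2B together, which averages 83.1 in DMSO and 276.3 at 1.0 µM.

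TGFBR1, the type I TGF-beta receptor (Entrez gene 7046, chromosome 9, 99103647 to 99154192), was not called. Its brightest probe set averaged 1484 ± 244 in DMSO, 1728 ± 24.5 at 0.1 µM and 1626 ± 160 at 1.0 µM. The 3 arrays at 0.1 µM lay above the 3 DMSO arrays, the only case of a higher, separate group among the 10 genes. That difference was 0.23 ± 0.12 on the log2 scale (adjusted p = 0.269), and the one at 1.0 µM was 0.14 ± 0.12 (adjusted p = 0.470, 95% interval −0.13 to 0.41). The other 2 TGFBR1 probe sets, both under a signal of 200 on every array, gave 0.02 and −0.44 at 1.0 µM, and neither was called.

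TGFBR2, the type II receptor that binds the ligand first (Entrez gene 7048, chromosome 3, 30606356 to 30694142), fell at 1.0 µM. Its signal was 2572, 2920 and 3124 in DMSO. It was 2415, 2377 and 2497 at 0.1 µM and 2108, 2524 and 2111 at 1.0 µM. All 6 treated arrays lay under the lowest DMSO array, by a narrow margin, and the doses overlapped. On the log2 scale it changed by −0.35 ± 0.10 at 1.0 µM (adjusted p = 0.0269, 1.28-fold lower), the smallest of the called falls, and −0.24 ± 0.10 at 0.1 µM (adjusted p = 0.172). The 1.0 µM call was lost without DMSO replicate 2 or 3 or 1.0 µM replicate 1 or 3 (adjusted p = 0.0770, 0.0854, 0.0978 and 0.107). The second probe set, dimmer at 120 to 214 in DMSO, gave −0.32 and was not called.

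SMAD3, which carries the TGF-beta signal to the nucleus (Entrez gene 4088, chromosome 15, 67065602 to 67195169), was not called. Its brightest probe set averaged 5228 ± 704 in DMSO, 4905 ± 306 at 0.1 µM and 4764 ± 571 at 1.0 µM, and the groups overlapped. The log2 change at 1.0 µM was −0.13 ± 0.12 (adjusted p = 0.485, 95% interval −0.39 to 0.13). The other 3 probe sets gave 0.27, 0.39 and −0.04, so the 4 sets did not share a direction and none was called.

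SMAD6, an inhibitory SMAD that acts mainly on BMP receptors (Entrez gene 4091, chromosome 15, 66702236 to 66782849), fell at both doses. The DMSO arrays read 1129, 1236 and 962. The 0.1 µM arrays read 779, 827 and 761, and the 1.0 µM arrays 669, 559 and 631. In this brightest probe set the 3 groups were fully separate and stepped down with dose, from a mean of 1109 ± 138 to 789 ± 34.3 and 619 ± 55.9. The log2 change was −0.82 ± 0.12 at 1.0 µM (adjusted p = 0.000293, 1.77-fold lower) and −0.48 ± 0.12 at 0.1 µM (adjusted p = 0.0188). The step between doses, −0.34 ± 0.12, did not pass the test (adjusted p = 0.239). Leaving out each array in turn kept the 1.0 µM call, and the 0.1 µM call was lost without DMSO replicate 1 or 2 or 0.1 µM replicate 1 or 3 (adjusted p = 0.0627, 0.0748, 0.0653 and 0.0847).

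The other SMAD6 probe sets were dimmer and none was called. One read 139 to 174 in DMSO and 108 to 161 at 1.0 µM, and another 81.0 to 112 and 64.1 to 101. Their log2 changes at 1.0 µM were −0.26 and −0.27, less than a change of −0.82 in the brightest set, and their groups overlapped. At 0.1 µM they changed by −0.31 and −0.34, and between the doses by 0.04 and 0.07, so neither stepped down with dose. With the mean of the tested SMAD6 probe sets, the 0.1 µM change was −0.38 and was not called (limma, adjusted p = 0.0866). The last set lay below the filter, with a mean of 13.6 in DMSO.

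SMAD7, the inhibitory SMAD that TGF-beta itself induces (Entrez gene 4092, chromosome 18, 48919853 to 48950965), fell at 1.0 µM. Its single probe set read 652, 568 and 759 in DMSO. It read 507, 634 and 454 at 0.1 µM and 463, 461 and 383 at 1.0 µM. The 1.0 µM arrays all lay below the DMSO arrays, and those at 0.1 µM overlapped both. On the log2 scale SMAD7 changed by −0.58 ± 0.15 at 1.0 µM (adjusted p = 0.0158, 1.49-fold lower) and −0.31 ± 0.15 at 0.1 µM (adjusted p = 0.232, 95% interval −0.64 to 0.02). Without DMSO replicate 3 or without 1.0 µM replicate 3 the 1.0 µM call was lost (adjusted p = 0.0617 and 0.0712).

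ID1, a bHLH inhibitor and common readout of BMP signalling (Entrez gene 3397, chromosome 20, 31605289 to 31606510), fell at both doses. Its signal was 6394, 7038 and 5995 in DMSO. At 0.1 µM it was 4970, 4335 and 4513, and at 1.0 µM 3734, 4559 and 4006. Every treated array lay below every DMSO array, while the doses overlapped. The log2 change was −0.66 ± 0.11 at 1.0 µM (adjusted p = 0.000778, 1.58-fold lower) and −0.49 ± 0.11 at 0.1 µM (adjusted p = 0.0101). The difference between doses was −0.17 and was not called (adjusted p = 0.569). The 1.0 µM fall kept its call without each array in turn, and the 0.1 µM call was lost without 0.1 µM replicate 3 (adjusted p = 0.0526).

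ID2, a relative of ID1 (Entrez gene 3398, chromosome 2, 8682056 to 8684461), was not called by either of its own probe sets. The brighter one averaged 279 ± 32.4 in DMSO, 270 ± 21.2 at 0.1 µM and 265 ± 67.5 at 1.0 µM, with overlapping groups. Its log2 change was −0.10 ± 0.19 at 1.0 µM (adjusted p = 0.771, 95% interval −0.51 to 0.31). The dimmer one, between 32.8 and 106 on all arrays, gave −0.39 at 1.0 µM and 0.32 at 0.1 µM. Between the doses it gave −0.71, with groups that did not overlap, and none of these changes was called. A probe set listed for ID2 and ID2B together rose at both doses and is described among the results flagged for a closer look.

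ID3, the third ID gene measured and often induced together with ID1 (Entrez gene 3399, chromosome 1, 23557926 to 23559501), fell at both doses. The DMSO arrays read 2105, 2043 and 1467. The 0.1 µM arrays read 1331, 1275 and 1197, and the 1.0 µM arrays 620, 827 and 669. The 3 groups were fully separate, and the mean signal fell by 32.3% at 0.1 µM and by 62.3% at 1.0 µM. The log2 change was −1.38 ± 0.15 at 1.0 µM (adjusted p = 3.25e-05, 2.60-fold lower), −0.54 ± 0.15 at 0.1 µM (adjusted p = 0.0310) and −0.84 ± 0.15 between the doses (adjusted p = 0.0243, 1.79-fold lower). The 1.0 µM call held without each array in turn. At 0.1 µM it was lost without DMSO replicate 1 or 2 (adjusted p = 0.119 and 0.108) or 0.1 µM replicate 1, 2 or 3 (0.0659, 0.0621 and 0.127). Between the doses it was lost without 0.1 µM replicate 1, 2 or 3 (adjusted p = 0.131, 0.0777 and 0.0697) or 1.0 µM replicate 1 or 3 (0.111 and 0.129).

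**Figure D3:**
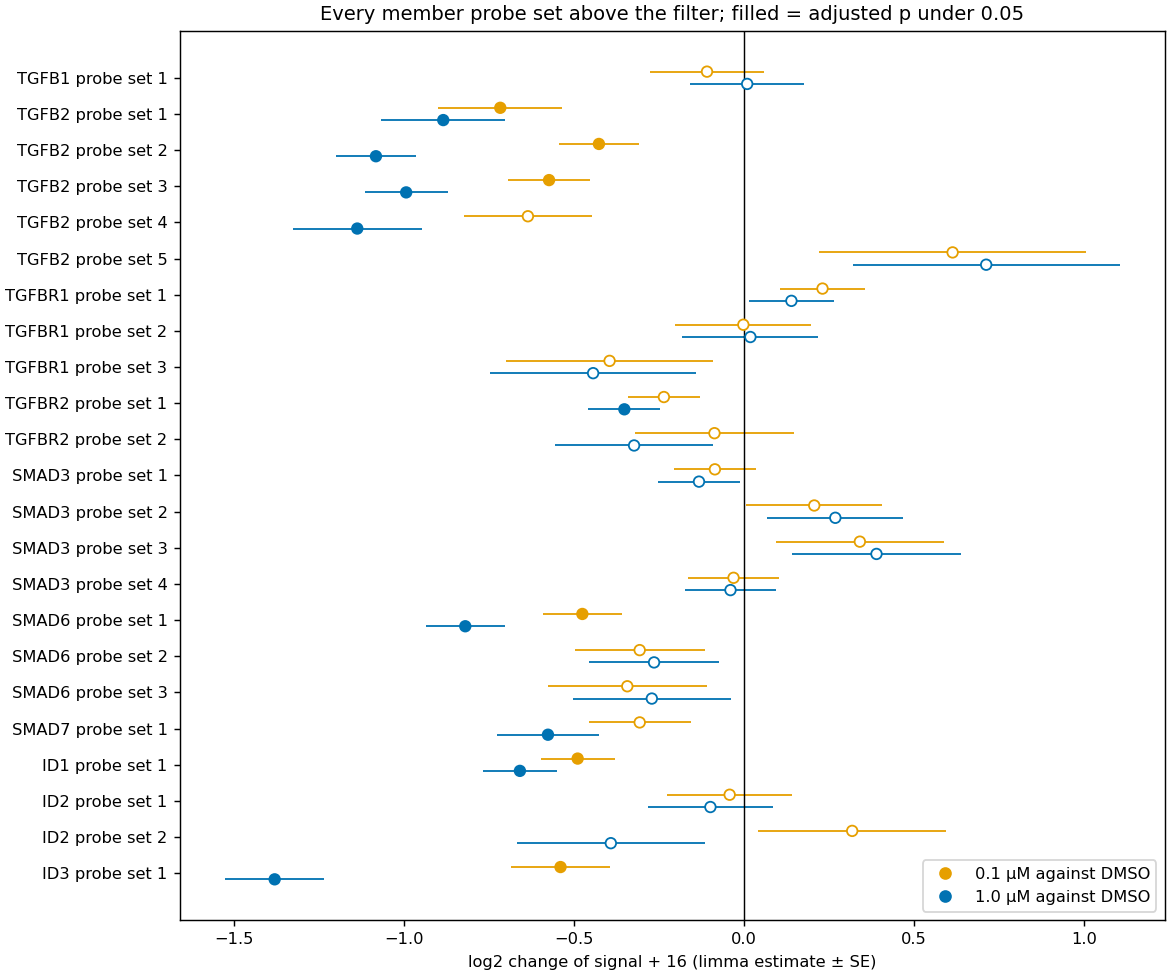
Log2 change of signal + 16 for the 23 probe sets above the filter (horizontal axis, with bars of 1 limma SE) at 0.1 and 1.0 µM against DMSO, grouped by gene, from the fit of all 32768 probe sets. At 1.0 µM, 9 of the 23 were called, all lower, and 17 of the 23 lay below 0.

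Counted over probe sets, 9 of the 23 above the filter fell at 1.0 µM and 6 of 23 fell at 0.1 µM, and none rose at either dose. Over all 32768 probe sets, 17.6% were called at 1.0 µM, 8.94% higher and 8.68% lower, and 8.25% were called at 0.1 µM, 4.59% higher and 3.66% lower. Between the doses 2 fell, the single ID3 set and 1 of TGFB2, where 0.281% of all probe sets were called, 0.122% higher and 0.159% lower. Probe sets of 1 gene share its transcripts and are not independent counts. By the separation of arrays alone, 6 of the 10 genes did not overlap between DMSO and 1.0 µM (37.2% of all genes, 19.2% higher and 18.0% lower), all lower. At 0.1 µM also 6 did not overlap (30.0% of all genes, 15.5% higher and 14.6% lower), 5 lower and TGFBR1 higher. Between the doses 2 did not overlap, SMAD6 and ID3, both lower at 1.0 µM (18.5% of all genes, 9.73% higher and 8.73% lower).

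Within the 2 sets of arrays that the spike controls separate, the same comparisons were fitted again. The higher set holds 1 DMSO array, 2 arrays at 0.1 µM and 1 at 1.0 µM, so its 1.0 µM comparison sets 1 array against 1. The lower set holds 2, 1 and 2. A lone array is assumed to vary like the arrays of the other groups, and a call that rests on one is weak evidence, so the values are given as sizes. At 1.0 µM ID3 changed by −1.43 in the lower set and −1.29 in the higher, TGFB2 by −0.92 and −0.81, SMAD6 by −0.67 and −1.12, and ID1 by −0.68 and −0.62. In the lower set, with 2 arrays on each side, these 4 were called. SMAD7 gave −0.72 in the lower set (adjusted p = 0.019) and −0.29 in the higher (adjusted p = 0.315). TGFBR2 gave −0.42 (adjusted p = 0.0465) and −0.21 (adjusted p = 0.2505). At 0.1 µM each set has 1 lone array on one side, at 0.1 µM in the lower set and DMSO in the higher. TGFB2, SMAD6, ID1 and ID3 gave −0.53, −0.33, −0.51 and −0.46 in the lower set, where none was called, and all 4 were lower and called in the higher set. The ID3 difference between doses was −0.97 in the lower set (adjusted p = 0.294, 1 array at 0.1 µM) and −0.60 in the higher (adjusted p = 0.0143, 1 array at 1.0 µM).

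Around these 10 genes, 7 lists of pathway genes held 90 others, of which 69 were tested. At 1.0 µM 14 of the 69 rose and 13 fell, so 39.1% were called against 23.2% of all genes, with a median log2 change of −0.05. At 0.1 µM 9 rose and 4 fell (18.8%, against 12.0% of all genes). Between the doses 1 rose, BMP6, and none fell. The list medians at 1.0 µM were 0.17 for ligands and latency genes, −0.25 for receptors, 0.07 for signalling SMADs, −0.17 for inhibitors, −0.03 for TGF-beta responsive genes, −0.05 for BMP responsive genes and −0.72 for the 3 bHLH partners, beside 0.01 over all genes. The pathway genes called at 1.0 µM thus moved both ways, while the 6 called members all fell. The lists were chosen with earlier results of these data known.

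Among 15 tested ligands and latency genes, 4 rose and 5 fell at 1.0 µM, and 4 rose and 1 fell at 0.1 µM. Over all genes 23.2% were called at 1.0 µM and 12.0% at 0.1 µM. INHBE, which encodes an activin beta subunit, rose from a signal of 33.4 in DMSO to 146 at 0.1 µM and 207 at 1.0 µM, a log2 change of 2.15 ± 0.22 at 1.0 µM. Its DMSO arrays read 31.3 to 37.1, below the filter level of 38.95, so INHBE passed the filter only through the treated arrays and the size of its change depends on the added constant. BMP6, a BMP ligand, rose from 597 to 971 and 1603 (1.41 ± 0.12 at 1.0 µM), and its rise of 0.72 between the doses (adjusted p = 0.0218) was lost without 0.1 µM replicate 1 or 2 or 1.0 µM replicate 1 or 3 (adjusted p = 0.131, 0.0745, 0.104 and 0.0840). GDF15, a stress-induced member of the ligand family, rose from 5370 to 9788 and 12256 (1.18 ± 0.15), although its other tested probe set gave 0.17. These 3 genes rose at 0.1 µM as well, by 1.71, 0.69 and 0.85, while the other tested GDF15 probe set gave −0.11 there.

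Of 8 receptors tested 1 rose and 1 fell at 1.0 µM and none was called at 0.1 µM. The shares called over all genes were 23.2% and 12.0%, so these small counts say little about receptors. ACVR1, a type I receptor for BMPs and activins, rose by 0.53 ± 0.12 on the log2 scale (adjusted p = 0.00794). Of 5 signalling SMADs 2 rose at 1.0 µM and none was called at 0.1 µM. SMAD1, which carries the BMP signal, rose by 0.33 ± 0.09 (adjusted p = 0.0254), a call lost without DMSO replicate 2 or 3 or 1.0 µM replicate 1 (adjusted p = 0.0572, 0.0736 and 0.0953).

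Among 15 inhibitors and feedback genes 2 rose and 3 fell at 1.0 µM, and 1 fell at 0.1 µM, beside 23.2% and 12.0% of all genes called. SKI, a repressor that binds SMAD complexes, fell by 0.84 on the log2 scale (SE 0.12) at 1.0 µM and by 0.45 at 0.1 µM. Its 3 probe sets ranged from −0.84 to 0.15 at 1.0 µM, and the 0.1 µM call was lost without DMSO replicate 3 or 0.1 µM replicate 1 or 3 (adjusted p = 0.0744, 0.100 and 0.0946). Of 16 genes known to respond to TGF-beta 3 rose and 2 fell at 1.0 µM, and 4 rose and 1 fell at 0.1 µM. IGFBP3, a secreted binding protein of insulin-like growth factors, fell by 0.84 (SE 0.20) at 1.0 µM and by 0.70 at 0.1 µM. The 0.1 µM call was lost without DMSO replicate 1 or 2, without any of the 3 arrays at that dose, or without 1.0 µM replicate 3 (adjusted p = 0.0651 to 0.145).

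Of 7 genes known to respond to BMP, apart from ID1, ID2, ID3 and SMAD6, 2 rose and 1 fell at 1.0 µM. At 0.1 µM 1 rose and 1 fell, and the shares called over all genes were 23.2% at 1.0 µM and 12.0% at 0.1 µM. MSX1, a homeobox factor, rose from 233 to 318 and 486, a log2 change of 1.01 ± 0.12 at 1.0 µM, and its other probe set gave 0.26. Its rise of 0.43 at 0.1 µM was lost without any 1 of 8 of the arrays (adjusted p up to 0.110), all but 1.0 µM replicate 2. HES1, a bHLH repressor, fell by 0.45 at 0.1 µM (adjusted p = 0.0134, lost without 0.1 µM replicate 1 at 0.0652) and gave −0.08 at 1.0 µM. Of 3 tested bHLH partners of the ID proteins, TCF3 fell at 1.0 µM by 0.73 (SE 0.12). Its 12 probe sets ranged from −0.73 to 0.59, and their mean gave −0.09 (adjusted p = 0.593).

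**Figure D4:**
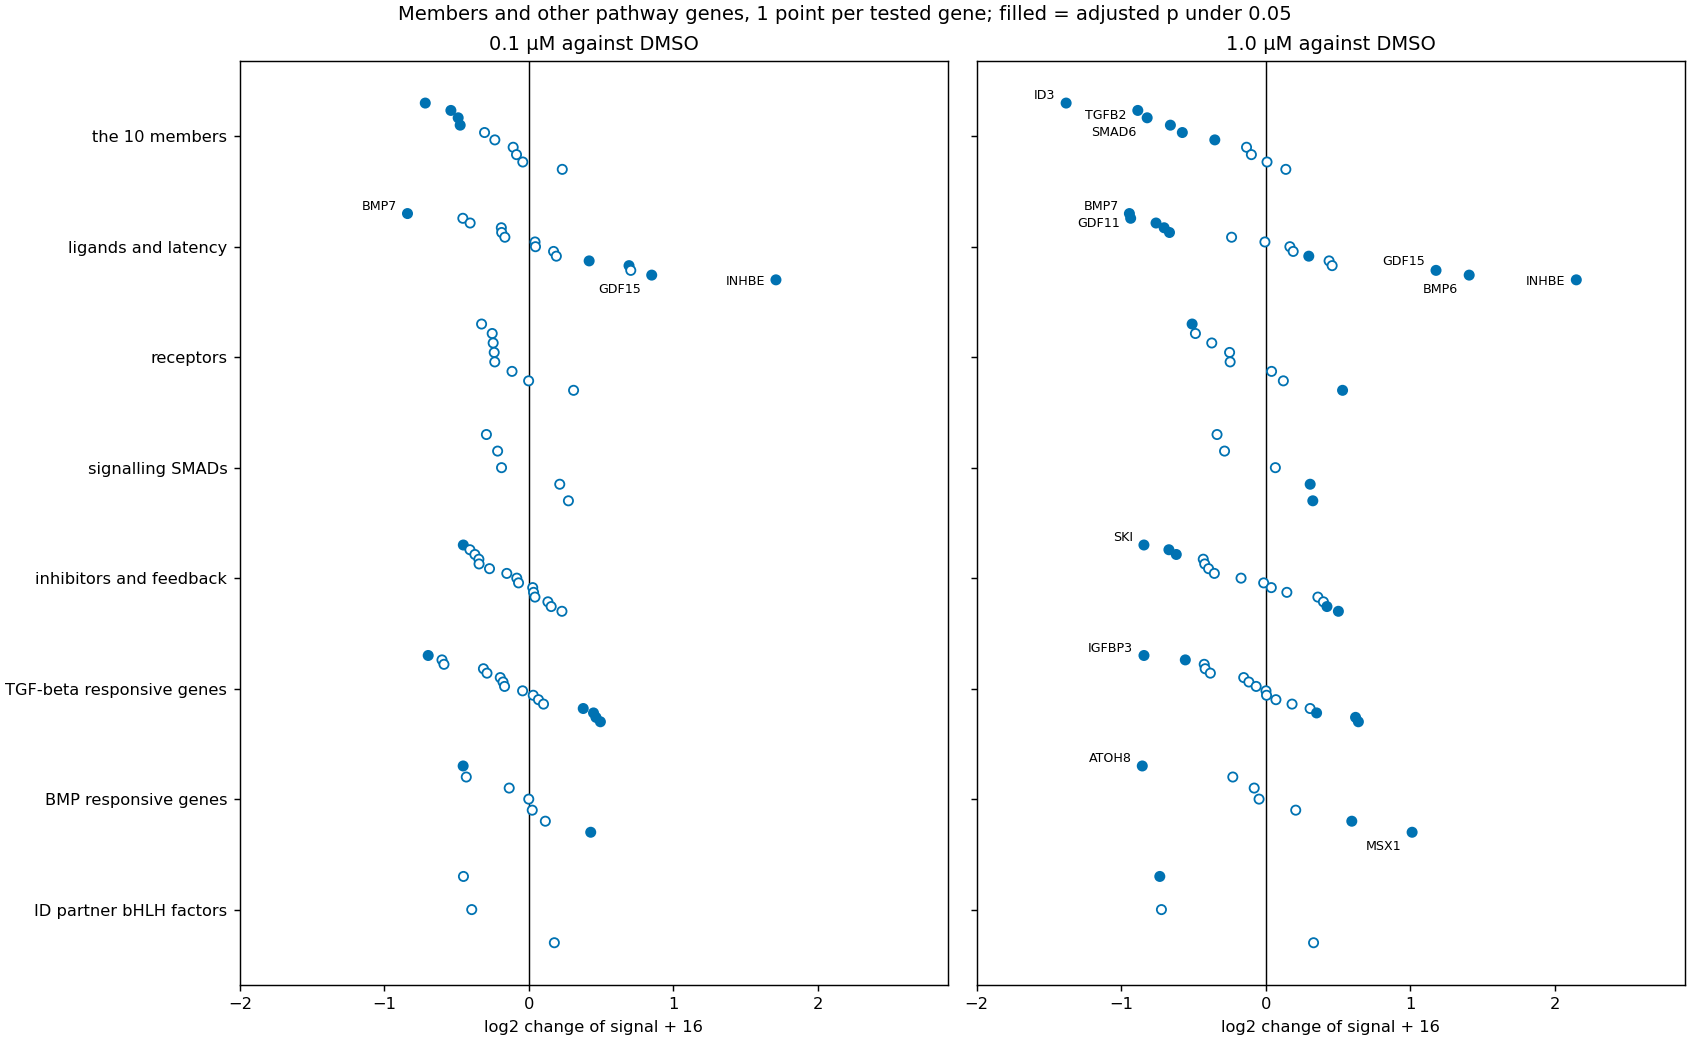
Log2 change of signal + 16 (horizontal axis) at 0.1 and 1.0 µM against DMSO for the 10 genes and for each list of other pathway genes, 1 point per tested gene, filled where the adjusted p was under 0.05. At 1.0 µM the filled points of the 10 genes all lie below 0, while the lists hold 14 higher and 13 lower.

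Over the 9 arrays the tested genes that followed the 3 most clearly changed members most closely were named by Pearson's correlation of log2(signal + 16), as a description of arrays that share the same treatments. For ID3 these were NFATC2 (r = 0.989), NUAK1 (0.985) and RPA3 (0.983). For SMAD6 they were COX16 (0.993), ATF7IP2 (0.988) and TRA2A (0.985), and for ID1 they were ILF2, SDF2 and UBE2C (each 0.989). The search ran over 13938 genes.

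Of the 6 markers of the line's epithelial identity, 1 rose, 2 fell and 3 were not called at 1.0 µM, where 23.2% of all genes were called. At 0.1 µM 1 rose, 1 fell and 4 were not called, where 12.0% of all genes were called. The summed signal of the 6 epithelial markers was 54365 to 75162 in DMSO, 46999 to 65717 at 0.1 µM and 37155 to 52205 at 1.0 µM. KRT8 and KRT19 fell at 1.0 µM by 0.86 and 0.90 on the log2 scale, and KRT7 rose by 1.06, whereas the second tested probe set of KRT19 gave −0.09 and that of KRT7 −0.02. CDH1 fell by 0.59 at 0.1 µM (adjusted p = 0.0145), with its second probe set at −0.0046, and gave −0.35 at 1.0 µM (adjusted p = 0.0846). The 12 measured markers of other cell types summed to 402 to 641 in DMSO and 440 to 531 at 1.0 µM, and the highest signal on any array was 39.7 for PTPRC (blood), 18.8 for VWF and 55.0 for CDH5 (endothelium), 52.7 for LUM (fibroblasts), 11.6 for CPA1 (acinar cells) and 14.4 for INS (beta cells). The 3 that passed the filter were brighter, up to 223.9 for PECAM1 (endothelium), 130.9 for CD3E (T cells) and 151.4 for DCN (fibroblasts), and their log2 changes at 1.0 µM were 0.09, −0.43 and 0.35, none called. The part of these shifts in the members' changes was not tested.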

How the data were processed

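Total RNA from PANC-1 cells was labelled with biotin and read on 9 Affymetrix HG-U133 Plus 2.0 arrays. The authors deposited 1 hybridisation intensity per probe set, a linear MAS5 signal per the submitters' processing notes (version not given in the sources used here). The trimmed mean of 500.1 on every array shows that the deposited values were scaled to 1 target. Arrays carry no read depth, and 3 arrays per group limit the precision.

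Samples were grouped by title. The treatment field of the 1.0 µM samples gives 0.1 µM, 1 sample titled 0.1 µM (replicate 1) is described as DMSO, and DMSO is given as 0.05% and as 0.5%. The 22Rv1 cells and the 48 hour treatment named in the design text were not analysed here.

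Signals were used as deposited and tested as log2(signal + 16), which makes folds of dim genes smaller. The 62 control probe sets were left out. Symbols came from the platform annotation, updated by Entrez identifier to RefSeq (41037 of 41091 probe sets with 1 symbol; 1801 had several and 11721 were not listed). Probe sets with a mean level above the 40th percentile were kept, 32768 in all, and the brightest stood for each of 13948 genes. Sets ending in _s_at or _x_at can also read related transcripts. Sets of this kind stand for TGFB1, TGFBR1, SMAD6, ID1, ID2 and ID3, and ID1 and ID3 have no other set. The dimmer TGFB2 sets that fell are of this kind too. A single model of the 3 groups was fitted with limma 3.58.1 in R 4.3.3 (lmFit, eBayes with intensity trend, 6 residual and 5.93 prior degrees of freedom), two-sided, with Benjamini-Hochberg adjustment over all genes or all probe sets and calls at an adjusted p under 0.05. Named pathway genes are those called with a log2 change of at least 1, and the called gene with the largest change in each list; the correlated genes are the 3 closest to each of the 3 members with the smallest F-test p. The keratins were named after their values were seen.

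The members, lists and alternatives were chosen with earlier results of these data known. On simulated data with 200 changed genes among 13948, the 1.0 µM comparison recovered 29% of log2 changes of 0.5 and 72% of changes of 1. In the data themselves 3240 genes were called at 1.0 µM, and adjusted p-values depend on how many genes change. The simulated shares therefore do not give the recovery in these data. A missed call is still no evidence that a gene did not change. The alternatives were other constants (1 and 64), filters, scalings, probe set rules, eBayes settings, array weights, blocks, subsets of arrays and each array left out. Promoter windows came from RefSeq (GRCh38.p14).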

Additional observations from a re-analysis of the deposited data

Results flagged for a closer look

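A probe set listed for both ID2 and ID2B was left out of the 10 genes because it names 2 genes. It nevertheless gave a signal above that of the DMSO arrays: 89.4, 84.7 and 75.3 in DMSO, 181.0, 194.3 and 186.6 at 0.1 µM, and 296.3, 209.4 and 323.2 at 1.0 µM. Its mean of 83.1 ± 7.18 in DMSO became 187 ± 6.68 at 0.1 µM and 276.3 ± 59.5 at 1.0 µM (SD, n = 3), and the 3 groups did not overlap. In the fit of all probe sets (limma) the log2 change was 1.54 ± 0.18 at 1.0 µM and 1.04 ± 0.18 at 0.1 µM (adjusted p = 0.0036). The 2 probe sets listed for ID2 alone were not called in either comparison, and which transcript the shared set reads was not tested.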

How the results depend on the processing

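The falls of TGFB2, SMAD6, ID1 and ID3 at 1.0 µM against DMSO were called under all 25 alternatives (the higher spike set among them, with 1 array against 1), and 4 to 6 members were called in each. TGFBR2 at 1.0 µM was not called under 10 of them (adjusted p up to 0.2505) and SMAD7 under 3 (up to 0.315). At 0.1 µM against DMSO no member was called under every alternative. Without one array the count of members ranged from 0 to 4 at 0.1 µM and from 0 to 1 between doses, the member probe sets from 0 to 6 and from 0 to 2, the pathway genes from 5 to 16 and from 0 to 3, and all genes from 843 to 1996 and from 11 to 183.

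Counts that moved by over 1.5 times are given by setting, and the cause was not tested. At 0.1 µM against DMSO the 4 members became 2 without the trend and 0 in the lower spike set. The 6 member probe sets became 3 with no filter, 3 with median centring, 1 without the trend, 3 with the replicate block and 0 in the lower spike set. The 13 pathway genes became 8, 7, 6 and 2 with no filter, median centring, the replicate block and the lower spike set. All called genes, 1674, became 313 in the lower spike set. With every probe set fitted, more features were tested and the counts are of probe sets. At 0.1 µM against DMSO 2703 probe sets were called in place of 1674 genes (8.25% of probe sets, 12.0% of genes). At 1.0 µM against DMSO 5772 probe sets were called in place of 3240 genes (17.6% and 23.2%).

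Between the doses the 1 member became 0 without the trend, with the replicate block and in the lower spike set, and 2 with array weights. The 2 member probe sets became 1 with a constant of 1, with robust eBayes and with only the 6 arrays compared, 4 with array weights, and 0 with no filter, median centring, no trend, the replicate block and either spike set. The 1 pathway gene became 3 at the 60th percentile filter, 2 with quantile normalization, 13 with array weights, 3 with the spike sets as a block, 4 in the higher spike set, and 0 with median centring, no trend, the replicate block and the lower spike set. All called genes, 114, became 67 with no filter, 173 with quantile normalization, 51 with median centring, 23 without the trend, 1953 with array weights, 64 with the 6 arrays, 23 with the replicate block, 256 with the spike block, 1 in the lower spike set and 384 in the higher one. Median centring moved the share of higher calls between doses from 47.4% to 21.6%. Deviations of samples with the same replicate number correlated at −0.34 to 0.22, above 0.1 in 1 of 9 pairs. For other numbers the range was −0.26 to 0.27. Such correlations cannot show whether arrays of 1 number were handled together, and the main fit did not pair them.

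Members that were not called changed sign under some settings, by log2 values that were not called there either. With the mean of probe sets ID2 gave 0.14 and SMAD3 0.11 at 0.1 µM, SMAD3 0.12 at 1.0 µM and 0.014 between doses, and TGFBR1 −0.055 at 0.1 µM and −0.095 at 1.0 µM. Array weights gave ID2 0.070 at 1.0 µM and 0.13 between doses, TGFB1 −0.032 and −0.019, and TGFB2 0.0025 between doses. The higher spike set gave ID2 0.093, SMAD3 0.038 and TGFB1 0.23 at 0.1 µM, SMAD3 0.14 and TGFBR1 −0.17 at 1.0 µM, and SMAD3 0.097 and TGFBR2 0.039 between doses. The lower set gave ID2 0.028 and TGFB1 −0.17 at 1.0 µM and ID2 0.066 between doses. Median centring gave TGFB1 −0.012 at 1.0 µM, and the spike block gave ID2 0.078 at 0.1 µM. Without one array TGFB1 ranged from −0.10 to 0.18 at 1.0 µM, −0.22 to 0.061 at 0.1 µM and −0.00053 to 0.21 between doses. ID2 ranged from −0.21 to 0.12, −0.13 to 0.022 and −0.17 to 0.16, SMAD3 from −0.15 to 0.022 at 0.1 µM and −0.14 to 0.020 between doses, TGFBR1 from −0.0013 to 0.23 at 1.0 µM, and TGFB2 from −0.25 to 0.0044 between doses. Of 41 calls of pathway genes, 13 held under every alternative in which the gene was tested, 28 were lost under at least 1, and 0 changed sign. Signals near the filter limit the dim probe sets.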

Other observations

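Other pathway genes moved at 1.0 µM in both directions, and the 5 calls given here held under all 25 alternatives; the genes were chosen after their values were seen. CCN2, a matricellular protein known as a TGF-beta target, rose from a signal of 5814 ± 538 in DMSO to 7941 ± 812 at 0.1 µM and 9069 ± 578 at 1.0 µM (SD, n = 3), a log2 change of 0.64 ± 0.11 at 1.0 µM (limma, adjusted p = 0.0013). Its relative CCN1 rose from 11089 ± 688 to 17154 ± 2235 at 1.0 µM, by 0.62 ± 0.15 on the log2 scale (adjusted p = 0.0093). LTBP1, which binds latent TGF-beta in the matrix, read 790 ± 95.7 in DMSO and 460 ± 57.0 at 1.0 µM and fell by 0.76 on the log2 scale (SE 0.14, adjusted p = 0.0022). INHBB, another activin subunit, fell by 0.70 (SE 0.12, adjusted p = 0.0013), from 1022 ± 157 to 619 ± 61.5. NUAK1, a kinase counted here among the TGF-beta responsive genes and close to ID3 over the arrays, fell by 0.56 (SE 0.09, adjusted p = 0.0011).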
